A study of Bos taurus with 24 samples.

Results

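The change in transcripts from immature germinal vesicle (GV) oocytes to mature metaphase II (MII) oocytes was examined in the July collection, which the study used as the summer, heat-stress season. The comparison set the 6 MII July libraries against the 6 GV July libraries, and the genes followed were those with a value over 0.1 FPKM in at least 1 of these 12 libraries, which was 8725 of the 11306 genes of the deposited table. FPKM is a level per exon length and per library size, counted in sequenced fragments. Each library was a pool of 4 denuded oocytes of 1 non-lactating, non-pregnant Angus-based crossbred beef cow kept on pasture, and each stage had 6 cows. GV oocytes were taken from the ovary by ultrasound-guided aspiration and had their cumulus cells removed, whereas MII oocytes came from cumulus-oocyte complexes that were first matured in vitro in medium with FSH and fetal bovine serum. The study matured a random part of the oocytes collected from each cow, so GV and MII pools can come from the same animals. No source used here states which pools shared a cow or whether a polar body was checked in each sequenced oocyte. The main tests treated the 12 libraries as independent. The oocytes of both stages carried the same season. The stage therefore came together with the culture, so maturation and time in culture cannot be told apart. The 6 GV and 6 MII libraries of May, from the study's spring collection, served only as a second measurement of the same change in the cooler season.

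A fully grown oocyte is transcriptionally almost silent and carries a store of maternal mRNA. On resumption of meiosis the nuclear envelope breaks down, the spindle forms and extrudes the polar body, and the oocyte arrests again at metaphase of the second meiotic division. During these steps stored messages are recruited by lengthening of their poly(A) tail or are deadenylated and degraded, and the embryo depends on what is left until its own genome is switched on. Because SMART-seq chemistry copies mRNA from its poly(A) tail, and because the deposited values of each library were scaled to a common total, every value below is a share of the captured RNA. A lower share from fewer molecules and one from shorter tails cannot be told apart, nor can fewer cells of a type and less RNA per cell, and a higher share can result where other transcripts are lost.

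GV July replicate 2 stood apart from the other libraries of its stage. It had 4294 genes over 1 FPKM, against 3071 to 3552 in the other 5 GV July libraries, and the 10 genes highest in GV July held 14.7% of its summed FPKM against 31.9% to 37.4% in the others. The deposited values come without read totals. A relative depth was therefore derived from the spacing of low values, with GV July replicate 1 set to 1. The study points to its supplement for the reads per sample, and the estimate was not set against those. By this estimate GV July replicate 2 was the shallowest library at 0.37 and GV July replicate 5 the deepest at 6.14, while the other GV July libraries lay between 0.745 and 2.07 and the 6 MII July libraries between 0.511 and 0.933. In MII July, 2722 to 3553 genes per library exceeded 1 FPKM. Where leaving it or another library out moved a count of called list members by over 1.5 times, both values are given.

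During maturation in July the number of transcripts that lost share far exceeded the number that gained. The call required that limma on log2(FPKM + 1) gave an unadjusted p below 0.05 together with a difference over 2-fold on that scale. With this rule 886 genes were lower in MII than in GV oocytes, 10.2% of those tested, and 211 were higher, 2.42% of those tested. After Benjamini-Hochberg adjustment 860 of the 886 and 189 of the 211 kept an adjusted p under 0.05. The 12 libraries of the stages did not overlap for 664 of the genes called lower and 110 of those called higher, and for 1655 of all genes, or 19.0%. A gene was described as retained when its mean was at least 5 FPKM and the 95% interval of its log2 difference lay within 2-fold in either direction. This held for 255 genes, 2.92% of those tested. A further 655 genes with a mean of at least 5 FPKM were neither called nor retained, their intervals reaching past 2-fold without a call, and 6718 genes of lower mean were not called. The split between lower and higher depended on the scaling of the libraries. Genes called higher made up 19.2% of all calls with the values as deposited, 32.8% after median-of-ratios scaling (769 lower and 376 higher) and 42.3% after quantile normalization (670 lower and 491 higher). Leaving out GV July replicate 2 gave 864 genes lower and 338 higher.

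**Figure D1:**
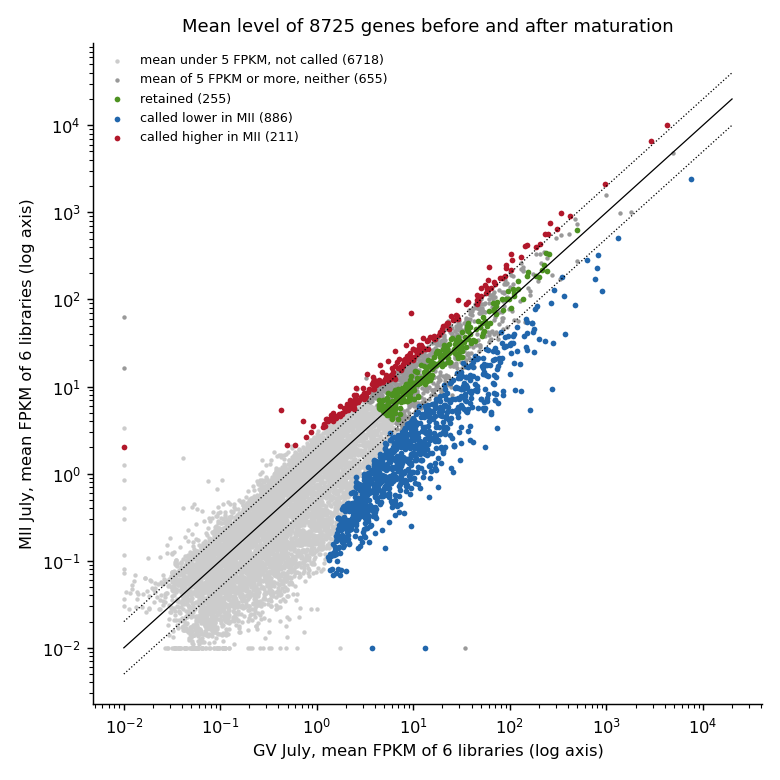
Mean FPKM of each of the 8725 genes over the 6 GV July libraries (horizontal, log axis) against the 6 MII July libraries (vertical, log axis), coloured by outcome; the solid line marks equal levels and the dotted lines a 2-fold ratio of means. The 886 genes called lower spread far below the lower dotted line, the 211 called higher lie close above the upper one and the 255 retained genes follow the line of equality.

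Losses were larger than gains. All log2 differences are on the log2(FPKM + 1) scale, which understates the change of low genes. The median log2 difference, taken as MII minus GV on the log2(FPKM + 1) scale, was -1.57 for the genes called lower, of which 232 fell by more than 2 and 33 by more than 3. For the genes called higher the median was 1.14, with 12 genes over 1.5. Median levels went from 7.57 to 1.44 FPKM in the first group and from 7.23 to 18.1 FPKM in the other. Loss was mostly incomplete. Of 571 genes called lower whose GV mean was at least 5 FPKM, 71 had an MII mean under 1 FPKM and 1 a mean under 0.1 FPKM. Calls lower were most frequent among genes with a mean of 5 to 20 FPKM, at 272 of 914, and among genes with a mean of 100 FPKM or more 26 were called lower and 26 higher of 113.

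The genes called lower held 36.2 ± 3.77% in GV July and 9.82 ± 2.92% in MII July of the summed FPKM. Those called higher held 15.8 ± 2.89% in GV July and 37.5 ± 6.29% in MII July, and 8.19 ± 2.31% in GV July and 19.1 ± 4.68% in MII July belonged to 2 entries for thymosin beta 4, an actin-binding peptide, TMSB4 and TMSB4X. These 2 entries are near-identical in sequence, so the division of reads between them is uncertain. Without them the genes called higher held 7.62 ± 0.686% in GV July and 18.4 ± 2.34% in MII July. Retained genes held 9.19 ± 0.399% in GV July and 9.99 ± 0.846% in MII July, all values being mean ± SD of 6 libraries. Since the calls chose the first 2 groups, their shares describe the size of the change and do not test it.

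**Figure D2:**
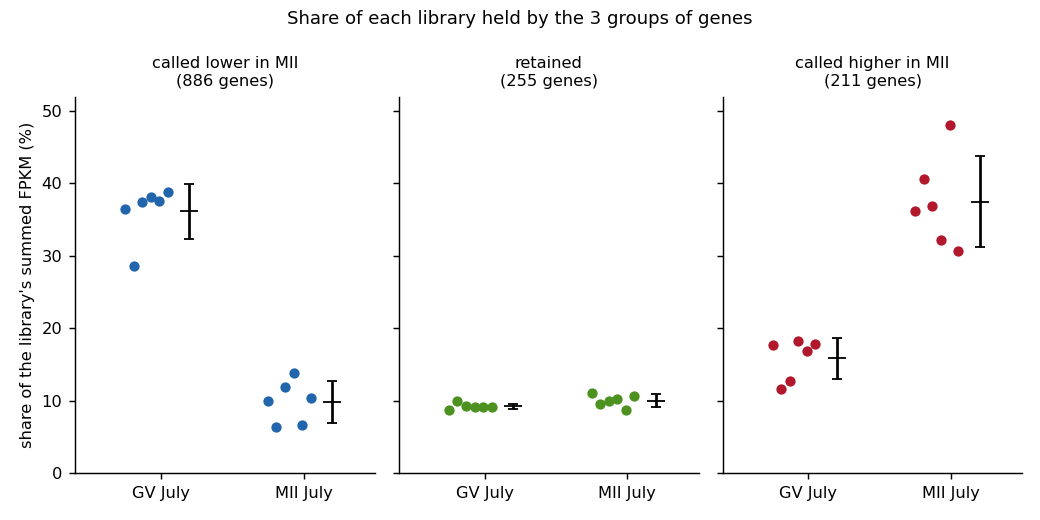
Share of each library's summed FPKM (vertical axis, percent, from 0) held by genes called lower, retained and called higher; each dot is 1 of 6 libraries per stage and the bar beside them is the mean ± SD. Genes called lower went from 28.6% to 38.8% of GV July libraries to 6.38% to 13.8% of MII July libraries, and the low GV point is replicate 2.

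Among genes whose libraries did not overlap, the largest losses were of GPX4, SSSCA1, HRAS, EXOSC6, CCDC107, LIMD2, HAX1 and an entry for DGCR6L. GPX4, the glutathione peroxidase that reduces lipid hydroperoxides (UMD3.1.1 chr7:45205077-45207499), had 94.8, 285 and 388 FPKM in the lowest, median and highest GV July library. In MII July the same 3 values were 5.41, 9.65 and 12.8 FPKM. The mean was 29-fold lower in MII, and the log2 difference was -4.61 ± 0.33 (SE, limma adjusted p = 9.8e-07). These genes were picked for having no overlap between the stages. That choice alone fixes the exact permutation p at 0.00216, the smallest that 6 against 6 allows, so it is no separate test. SSSCA1, which encodes a zinc-binding autoantigen (chr29:44418400-44419681), ranged over 36.6, 181 and 206 FPKM in GV and 2.5, 5.3 and 7.99 FPKM in MII oocytes, again as lowest, median and highest library. Its lowest GV value was that of replicate 2. HRAS, a small GTPase of growth factor signalling (chr29:51095423-51098332), went from 73.2 ± 40.6 to 3.36 ± 2.64 FPKM (mean ± SD, 6 libraries each). HAX1, an anti-apoptotic protein of mitochondria (chr3:16307941-16310582), varied little within each stage, going from 38.5 ± 3.32 to 2.4 ± 0.764 FPKM, with a log2 difference of -3.56 ± 0.20. EXOSC6, a subunit of the RNA exosome (chr18:1853417-1853641, an entry of 225 bases), went from 55.1 ± 48 to 2.0 ± 1.57 FPKM, with 149 FPKM in GV July replicate 2 alone. CCDC107, a coiled-coil protein, fell by 3.69 and LIMD2, a LIM domain protein, fell by 3.57 on the log2 scale. The largest value, -4.68 ± 0.74, belonged to DGCR6L at chr15:73440856-73441129, an entry of 274 bases that the table repeats under the same symbol on another chromosome. The other entry, at chr17:74049771-74053883, was at 0.01 FPKM, the lowest deposited value, in all 6 GV July libraries. It was above that only in MII July replicates 1 and 4, at 1.69 and 0.711 FPKM. In these 2 libraries the chr15 entry was itself at 0.01 FPKM. The values thus moved between the 2 entries, so the size of this loss is uncertain.

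**Figure D3:**
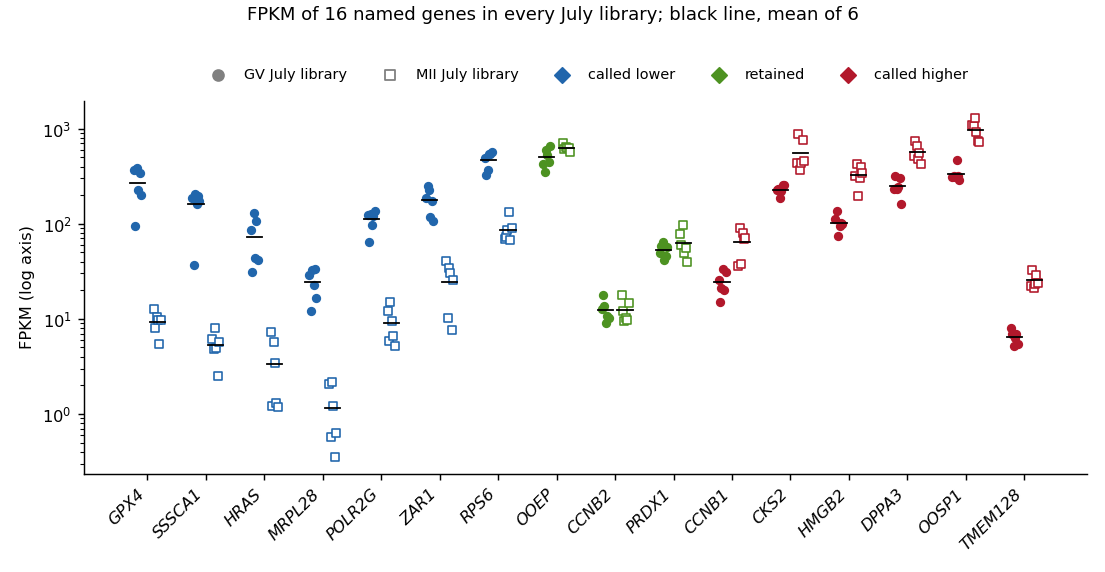
FPKM (vertical, log axis) of 16 named genes in each of the 6 GV July (filled circles) and 6 MII July (open squares) libraries, with the mean as a black line; colour marks the call. The 7 genes on the left separate downward without overlap, OOEP, CCNB2 and PRDX1 overlap, and the 6 on the right separate upward.

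Many nuclear-encoded genes of the mitochondrial ribosome and the respiratory chain were called lower. Of 77 mitochondrial ribosomal protein genes, 35 were called lower, 1 higher and 11 retained, or 45.5% lower against the 10.2% of all genes. Their median log2 difference was -0.82, against -0.04 for all genes tested, and together they held 2.13 ± 0.23% of the summed FPKM in GV July and 1.17 ± 0.161% in MII July. Since abundant genes were called more often, the share among members with a mean of at least 5 FPKM is the closer comparison, and there 24 of 47 were called lower (51.1%) against 28.5% of all genes of that level. MRPL28, of the large subunit, had 12.2, 25.5 and 33.5 FPKM in its lowest, median and highest GV library and 0.354, 0.92 and 2.14 FPKM in MII oocytes. MRPL27 went from 37.2 ± 5.08 to 3.1 ± 1.28 FPKM, a log2 difference of -3.26 ± 0.22 (adjusted p = 9.8e-07), and MRPL17 from 19.5 ± 2.43 to 1.96 ± 0.707 FPKM. All 6 MII libraries lay under all 6 GV libraries for these 3 genes. The member called higher was MRPL33, which rose from 28.3 ± 10.7 to 65.1 ± 24.4 FPKM, and after quantile normalization 3 members were called higher.

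The respiratory chain, which feeds electrons to oxygen and drives ATP synthesis, followed the same pattern. In complex I 18 of 38 genes were called lower, 2 higher and 7 retained, with a median log2 difference of -0.81, and in complexes III to V 16 of 39 were called lower, 2 higher and 6 retained, with a median of -0.49. These were 47.4% and 41.0% lower against 10.2% of all genes, and 53.8% and 46.9% against 28.5% among genes with a mean of at least 5 FPKM. NDUFA8, an accessory subunit of complex I, fell from 15.1 ± 4.86 to 1.07 ± 0.525 FPKM and NDUFB9 from 35.3 ± 7.0 to 5.26 ± 1.84 FPKM. ATP5G1, which encodes the ring subunit of ATP synthase, fell from 119 ± 24.8 to 25.3 ± 7.76 FPKM and ATP5H, of its stalk, from 59.8 ± 14.2 to 13.4 ± 5.75 FPKM. Other subunits of the same complexes rose, namely NDUFB6 (log2 difference 1.23 ± 0.24), NDUFB1 (1.18 ± 0.36), ATP5J (1.20 ± 0.21) and UQCRH (1.14 ± 0.27). UQCRH was no longer called without GV July replicate 2, at 0.92, nor NDUFB1 without MII July replicate 6, at 0.99. Each of these left 1 member of its list called higher, while both alternative scalings gave 4 higher in complex I. Members of single complexes therefore moved in opposite directions. Of 54 import and carrier genes 10 were lower and 2 higher, and 4 were higher under both alternative scalings. Their 18.5% lower stood against 10.2% of all genes, but at a mean of at least 5 FPKM the 22.2% lower did not exceed the 28.5% of all genes of that level. TIMM17B, of the inner membrane translocase, fell from 64 ± 23 to 5.14 ± 3.25 FPKM, while TOMM6 and TOMM7, small subunits of the outer membrane translocase, rose by 1.09 ± 0.17 and 1.42 ± 0.36 on the log2 scale. TOMM6 alone reached 900.4 ± 165 FPKM, and the summed share of the import list went from 1.2 ± 0.146% to 1.62 ± 0.232%.

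Messages for the cytosolic ribosome, the machine that translates mRNA, were partly lost and partly kept. Of 84 genes 23 were called lower, 1 higher and 21 retained, with a median log2 difference of -0.35. Among members with a mean of at least 5 FPKM the shares were 28.6% lower and 27.3% retained, against 28.5% and 17.1% of all genes of that level, so the share called lower was near the background. Without GV July replicate 2 and under both alternative scalings 2 members were called higher. The list held 15.9 ± 2.32% of the summed FPKM in GV July and 7.56 ± 2.76% in MII July, and much of that drop was FAU, which encodes a ubiquitin-like protein fused to ribosomal protein S30 (chr20:27972657-27972880, an entry of 224 bases). FAU was the most abundant message of GV oocytes at 3819.8, 7649 and 10197 FPKM in its lowest, median and highest library. It ranged over 1088, 2473 and 3798 FPKM in MII oocytes. RPS6, the small-subunit protein phosphorylated in response to growth signals, fell from 473 ± 99.1 to 86.3 ± 24.4 FPKM (log2 difference -2.45 ± 0.22, adjusted p = 5.5e-06). RPL18 fell from 110.2 ± 10.7 to 18.5 ± 7.5 FPKM and RPL26 from 36.7 ± 7.99 to 5.49 ± 2.42 FPKM, whereas RPL26L1, a close relative of RPL26 on another chromosome, rose from 46.7 ± 11.4 to 96.1 ± 21.6 FPKM. Reads of such relatives can be assigned to either copy, and the RPL26L1 call was lost, at 0.89 to 0.99, without GV July replicate 3 or MII July replicate 2, 5 or 6.

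Translation factors were called in both directions. Of 58 genes 11 were called lower and 3 higher, or 19.0% and 5.17% against 10.2% and 2.42% of all genes. Among members with a mean of at least 5 FPKM 22.7% were lower against 28.5%, and 9.09% higher against 10.5%. Neither share exceeded that of all genes of that level. The count called higher was 5 without GV July replicate 2, MII July replicate 1 or MII July replicate 3 and under both alternative scalings, and quantile normalization left 7 called lower. EIF1AD, a nuclear protein with an initiation factor domain, fell from 31.2 ± 3.03 to 3.39 ± 1.45 FPKM, EIF3G, of the scaffold of the small-subunit initiation complex, from 14.8 ± 4.52 to 1.25 ± 0.327 FPKM, and EEF1D, of the elongation factor exchange complex, from 9.03 ± 3.2 to 0.943 ± 0.638 FPKM. In the opposite direction the RNA helicase EIF4A2 rose from 21.6 ± 10.9 to 50.9 ± 13.4 FPKM, and EIF4G2, used in cap-independent initiation, had a log2 difference of 1.02 ± 0.37. The third gene called higher, EIF2S3, stood at 1.0 ± 0.24, on the border of the 2-fold rule. The EIF4G2 call was lost, at 0.87 to 0.93, without GV July replicate 1, 3 or 5 or MII July replicate 4 or 6, and the EIF2S3 call, at 0.80 to 0.97, without GV July replicate 3, 4 or 6 or MII July replicate 2.

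Genes of protein degradation were called in both directions. In the proteasome 12 of 46 were lower, 2 higher and 6 retained. This was 26.1% lower against 10.2% of all genes, but 26.3% against 28.5% at a mean of at least 5 FPKM, which is near the background. The count called higher was 1 without GV July replicate 2 or MII July replicate 2, 4 without MII July replicate 4, 5 without MII July replicate 6, 4 after quantile normalization and 5 after median-of-ratios scaling. For the proteasome genes their summed share moved little, from 0.681 ± 0.0444% to 0.733 ± 0.132%. PSMC1 and PSMC3, ATPases of the regulatory particle, fell by 1.93 and by 1.57 on the log2 scale. PSMA5, of the proteolytic core, rose from 25.9 ± 7.46 to 57.8 ± 19.4 FPKM and PSMG1, an assembly chaperone, from 9.36 ± 0.877 to 21.2 ± 6.92 FPKM. Without GV July replicate 2, PSMA5 had a log2 difference of 0.95 and was not called, nor was PSMG1 without MII July replicate 2, at 0.91. Among F-box and BTB adaptors, which bring substrates to ubiquitin ligases, 2 of 71 were lower and 4 higher, or 2.82% and 5.63% against 10.2% and 2.42% of all genes, and 1 was lower without GV July replicate 3 or 5 and after quantile normalization. SKP1, the adaptor that joins F-box proteins to cullin, rose from 49.7 ± 3.86 to 135 ± 62 FPKM, and its 6 GV libraries spanned only 45.2 to 56.3 FPKM. FBXO4 rose from 3.77 ± 0.55 to 11.4 ± 1.73 FPKM. In the proton pump and lysosome list 5 of 43 were lower and 0 higher, and the 11.6% lower was near the 10.2% background. There 1 gene was higher without GV July replicate 2, MII July replicate 1 or MII July replicate 3 and under both alternative scalings. LAMTOR4 and LAMTOR2, of the complex that docks mTORC1 on lysosomes, fell from 54.5 ± 9.76 to 5.31 ± 2.89 FPKM and from 30.8 ± 3.89 to 6.21 ± 2.78 FPKM, and ATP6V1E1, of the proton pump, from 7.32 ± 1.23 to 1.42 ± 0.465 FPKM.

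Transcription machinery is little used at this time, and 21 of 84 of its genes were lower and 4 higher, or 25% lower against 10.2% of all genes. Among members with a mean of at least 5 FPKM, 14 of 31 were lower, or 45.2% against 28.5%. Members called higher numbered 2 without MII July replicate 2 and 9 after quantile normalization. POLR2G, an RNA polymerase II subunit (chr29:41777025-41780285), had 63.8, 123 and 137 FPKM in its lowest, median and highest GV library and 5.24, 8.05 and 14.9 FPKM in MII oocytes. POLR2I, of the same enzyme, fell from 128 ± 28.6 to 18.3 ± 6.17 FPKM, and POLR1E, of RNA polymerase I, from 12.7 ± 2.39 to 1.87 ± 0.726 FPKM. TBPL1, a relative of the TATA-binding protein active in germ cells, rose instead, from 7.15 ± 1.56 to 20.7 ± 7.95 FPKM, as did MED4, of the Mediator complex, from 11.8 ± 2.29 to 26.7 ± 7.44 FPKM, a call lost without MII July replicate 2, at 0.97. Of 135 ZNF zinc finger genes 15 were lower and 2 higher, and the 11.1% lower was near the 10.2% background. Only 12 of them had a mean of at least 5 FPKM, and 7 of these were lower, 58.3% against 28.5% of all genes of that level. In that list 1 was higher without GV July replicate 1 or MII July replicate 2, 4, 5 or 6. ZNF691 fell from 5.94 ± 2.09 to 0.463 ± 0.295 FPKM.

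Spliceosome genes moved both ways, 8 lower, 5 higher and 7 retained of 57. The shares were 14% lower and 8.77% higher against 10.2% and 2.42% of all genes, and 22.2% and 18.5% against 28.5% and 10.5% at a mean of at least 5 FPKM. Members called higher numbered 9 after quantile normalization, 8 after median-of-ratios scaling and 3 without GV July replicate 1, GV July replicate 3 or MII July replicate 4. SNRNP25, of the minor spliceosome, went from 280.2 ± 69.6 to 31.8 ± 12.5 FPKM and SF3B5, of the branch point complex, from 768 ± 217 to 171 ± 40.4 FPKM. The core ring proteins SNRPF and SNRPG were higher, at 90.1 ± 21.3 to 250.1 ± 67.2 FPKM and 46.5 ± 12 to 109.7 ± 34.9 FPKM. Of 39 nuclear pore and transport genes 2 were lower and 3 higher, or 5.13% and 7.69% against 10.2% and 2.42% of all genes, and 5 were higher after quantile normalization. The importin KPNA2 fell from 45.3 ± 4.61 to 20.8 ± 5.97 FPKM, a call lost under both alternative scalings, which left 1 member lower, and NUP155, a scaffold nucleoporin, rose from 1.89 ± 0.518 to 5.6 ± 1.31 FPKM.

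Enzymes of energy metabolism were mostly scarce in both stages. In glycolysis and the citric acid cycle 8 of 44 genes were lower and 0 higher, or 18.2% lower against 10.2% and none higher against 2.42% of all genes. Only 3 of the list had a mean of at least 5 FPKM, of which 1 was lower. LDHB, a lactate dehydrogenase subunit, fell from 7.49 ± 1.59 to 0.882 ± 0.449 FPKM, and MDH2 and MDH1, the mitochondrial and cytosolic malate dehydrogenases, from 8.86 ± 3.93 to 1.13 ± 0.641 FPKM and 1.75 ± 0.275 to 0.236 ± 0.0967 FPKM. For fatty acid oxidation and lipid droplets 7 of 46 were lower and 0 higher, or 15.2% lower against 10.2%. Of the 3 members with a mean of at least 5 FPKM 0 were lower, against 28.5% of all genes of that level, and their median log2 difference was 0.76. Quantile normalization gave 4 lower and 2 higher in this list and 1 higher in the first, and without MII July replicate 3 there was 1 higher in the fatty acid list. ACAA1, a peroxisomal thiolase, fell from 3.19 ± 1.57 to 0.238 ± 0.206 FPKM, and ETFB, an electron acceptor of the pathway, from 2.92 ± 0.458 to 0.583 ± 0.337 FPKM.

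Of 53 antioxidant genes 9 were lower, 1 higher and 2 retained, which is 17% lower against the 10.2% background, and 35.3% against 28.5% at a mean of at least 5 FPKM. Without GV July replicate 1 or 2 or MII July replicate 3, 5 or 6, and under both alternative scalings, 2 were higher. Besides GPX4, the mitochondrial peroxiredoxin PRDX5 fell from 68.9 ± 11.7 to 13.4 ± 3.94 FPKM (log2 difference -2.31 ± 0.23, adjusted p = 1e-05), with lowest, median and highest values of 50.4, 68.2 and 85.3 FPKM in GV and 7.69, 12.7 and 19.5 FPKM in MII oocytes. SEPW1, a selenoprotein, fell from 69 ± 19.9 to 8.53 ± 4.67 FPKM. The cytosolic peroxiredoxin PRDX1 was retained at 52.6 ± 8.64 to 63.3 ± 21.2 FPKM, with an interval of -0.30 to 0.73 on the log2 scale. SOD1, the cytosolic superoxide dismutase, was neither called nor retained at 36.6 ± 4.27 to 22.8 ± 7.05 FPKM. GSTM3, a glutathione transferase among the 8 most abundant messages of both stages, had 582, 2068 and 2456 FPKM in its lowest, median and highest GV library and 544, 1053 and 1498 FPKM in MII oocytes, and was not called (log2 difference -0.82 ± 0.35). TXNDC9, a thioredoxin-domain protein, was the member called higher, from 36.6 ± 12.8 to 92.6 ± 41.5 FPKM.

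The oocyte's own messages did not move as a block. Of 20 maternal effect and oocyte identity genes 1 was lower, 3 higher and 2 retained. The count lower was 2 without GV July replicate 1 or 5 or MII July replicate 1, 4 or 6. The share higher was 15% against 2.42% of all genes, and at a mean of at least 5 FPKM 2 of 11 against 10.5%. Their summed share went from 1.17 ± 0.0702% to 1.99 ± 0.167%. DPPA3, which protects the maternal genome from demethylation (chr5:101791824-101799617), had 162, 238 and 318 FPKM in its lowest, median and highest GV library and 429, 538 and 744 FPKM in MII oocytes. The 2 stages did not overlap (log2 difference 1.19 ± 0.20, adjusted p = 0.00061). BCAR4, an oocyte-enriched gene of cattle, rose from 144 ± 28.5 to 414 ± 154 FPKM, and DNMT1, the maintenance DNA methyltransferase, from 2.06 ± 0.78 to 5.8 ± 2.13 FPKM. NLRP5, of the subcortical maternal complex, fell from 11.1 ± 7.14 to 2.66 ± 1.93 FPKM, with overlapping libraries. OOEP, of the same complex, was retained and was the most abundant retained gene, at 348, 487 and 662 FPKM in GV and 568, 626 and 712 FPKM in MII oocytes. NPM2, a histone chaperone for sperm chromatin, stood just outside the 2-fold rule: its libraries did not overlap, at 34.6 ± 2.63 to 17.6 ± 5.33 FPKM, and its log2 difference was -0.99 ± 0.22. ZAR1, which binds stored maternal mRNA (chr6:68820787-68824913), fell from 176 ± 56.5 to 24.6 ± 13.2 FPKM (log2 difference -2.94 ± 0.40, adjusted p = 9.6e-05). POU5F1 at 2.43 ± 0.882 to 2.37 ± 1.67 FPKM was not called, and DNMT3A was at 0.0772 ± 0.0441 and 0.0636 ± 0.0481 FPKM.

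Among 12 genes for secreted factors and the zona pellucida, the coat of the oocyte, 1 was lower and 1 higher, or 8.33% each against 10.2% and 2.42% of all genes. OOSP1, an oocyte-secreted protein (chr15:84427064-84434957), had 289, 314 and 468 FPKM in its lowest, median and highest GV library and 724, 1001 and 1293 FPKM in MII oocytes, so every MII library exceeded every GV library (log2 difference 1.52 ± 0.19, adjusted p = 5.3e-05). ZP3, a zona pellucida protein that binds sperm, was called lower at an unadjusted p, with 72, 89.7 and 572 FPKM in GV and 13.4, 58.8 and 104 FPKM in MII oocytes. Its highest GV value was that of replicate 2, its adjusted p was 0.061, and the call was lost without MII July replicate 2, at -1.23, or MII July replicate 5, at -1.18. The growth factors GDF9, at 160.3 ± 109 to 124 ± 79 FPKM, and BMP15, at 14.1 ± 6.86 to 22.8 ± 13.9 FPKM, were not called, nor were ZP2, at 86.2 ± 22.9 to 122 ± 53.6 FPKM, and ZP4, at 82.1 ± 57.2 to 60.7 ± 18.3 FPKM. Their 95% intervals were -1.38 to 0.52, -0.23 to 1.42, -0.17 to 1.05 and -1.01 to 0.42 on the log2 scale.

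Among cell cycle regulators more genes were called higher than lower. The median log2 difference of the list was 0.04, against -0.04 for all genes, with 28 members above 0 and 23 below. At a mean of at least 5 FPKM the median was 0.30, against -0.01 for all genes of that level. Of 51 genes for meiotic kinases, cyclins and the anaphase-promoting complex, the ubiquitin ligase that ends metaphase, 10 were called higher and 3 lower. The share called higher was 19.6% against 2.42% of all genes, and 9 of 23 against 10.5% at a mean of at least 5 FPKM. The count called higher was 7 without GV July replicate 2 and 6 without MII July replicate 2. CCNB1, the cyclin that activates the maturation-promoting kinase (chr20:10431452-10441127), had 15, 23.3 and 33.6 FPKM in its lowest, median and highest GV library and 36.1, 69.9 and 89.8 FPKM in MII oocytes. No GV library reached the MII range (log2 difference 1.31 ± 0.29, adjusted p = 0.0033; exact permutation p = 0.00216). CCNB2, the other B-type cyclin, was retained at 12.4 ± 3.18 to 12.3 ± 3.32 FPKM, with an interval of -0.49 to 0.48. CDK1, their kinase partner, was called lower, from 9.95 ± 5.27 to 4.04 ± 2.46 FPKM, an effect close to the threshold (adjusted p = 0.047) that was lost under both alternative scalings and, at -0.99 to -0.92, without GV July replicate 1, 3 or 5 or MII July replicate 5 or 6. CKS2, a CDK-binding subunit (chr8:90300716-90305612), rose from 229 ± 24.6 to 556 ± 211 FPKM, CDC26, of the anaphase-promoting complex, from 11.3 ± 3.77 to 26.9 ± 3.6 FPKM, and BORA, an activator of Aurora A, from 3.7 ± 1.05 to 10.6 ± 4.77 FPKM. ANAPC13, another small subunit of that complex, fell from 107 ± 38.4 to 38.3 ± 13.6 FPKM. PTTG1, the securin that guards chromatid cohesion, was among the 8 most abundant messages of MII oocytes, with 440.3, 1075 and 1206 FPKM in its lowest, median and highest GV library and 1284, 2120.3 and 2858 FPKM in MII. Its lowest value was that of GV July replicate 2, and without this library its log2 difference was 0.89 and it was not called, nor was it after quantile normalization, at 0.98. PLK1, a polo kinase, fell from 8.69 ± 9.7 to 2.14 ± 1.54 FPKM. Its GV mean rested on 28.3 FPKM in replicate 2, without which the log2 difference was -0.98 and not called. AURKA, at 108 ± 45.5 to 151 ± 29.2 FPKM, and CDC20, at 22.5 ± 9.08 to 25.6 ± 11.9 FPKM, were not called, and CDC20 was retained.

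Of 99 spindle and kinetochore genes 9 were lower and 7 higher. The 9.09% lower was near the 10.2% background, and 7.07% were higher against 2.42% of all genes. At a mean of at least 5 FPKM, 3 of 25 were higher, against 10.5% of all genes of that level. The share called higher was thus near that of all genes of that level. Of the same 25 genes 5 were lower, against 28.5%. The count called higher was 14 after median-of-ratios scaling and 18 after quantile normalization. Without GV July replicate 2 or MII July replicate 3, 11 were higher, and without GV July replicate 3 or MII July replicate 2, 4 were. Members called lower included TUBB4B, a beta tubulin, which fell from 69.6 ± 26.6 to 6.92 ± 4.7 FPKM, and TUBA1B, an alpha tubulin, which fell from 173 ± 53.2 to 41.9 ± 14.5 FPKM. DYNLRB1, a dynein light chain, fell from 11.9 ± 0.857 to 1.16 ± 0.339 FPKM and DYNLL1, a hub protein of dynein and many other complexes, from 1309 ± 374 to 506 ± 142 FPKM. Members called higher included KIF20B, a kinesin of cytokinesis, from 3.91 ± 1.77 to 10.2 ± 3.09 FPKM, ASPM, which focuses spindle poles, from 2.3 ± 0.541 to 5.98 ± 2.21 FPKM, and CENPL, of the kinetochore, from 2.44 ± 1.11 to 6.23 ± 2.01 FPKM. The ASPM call was lost without GV July replicate 6, at 0.98, or MII July replicate 2, at 0.90, and the CENPL call without GV July replicate 3, at 0.99, or MII July replicate 4, at 0.98.

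Deadenylation and decay genes shorten and remove other messages. Of 33 deadenylation and decay genes 3 were lower, all of them exosome subunits (EXOSC1, EXOSC4 and EXOSC6), and 1 was higher, or 9.09% and 3.03% against 10.2% and 2.42% of all genes. Among the 9 with a mean of at least 5 FPKM, 3 were lower, or 33.3% against 28.5%. The count called higher was 3 without GV July replicate 2, and 2 without MII July replicate 1 or 3 and under both alternative scalings. Together these genes held 0.343 ± 0.188% of the summed FPKM in GV July and 0.228 ± 0.113% in MII July. Much of that drop was EXOSC4, at 57.6 to 7.29 FPKM, and EXOSC6, at 55.1 to 2.0 FPKM. The median log2 difference of the list was 0.10, with 21 members above 0 and 12 below. The gene called higher, CNOT7, a catalytic deadenylase, had 4.15, 6.25 and 22.5 FPKM in its lowest, median and highest GV library and 10.9, 20.6 and 35.5 FPKM in MII oocytes, with a log2 difference of 1.30 ± 0.39, and its highest GV value was that of replicate 2. Of 26 regulators of stored mRNA only ZAR1 was called, 3.85% lower against 10.2%, and 2 were lower without GV July replicate 1 or MII July replicate 6 and with all 4 groups in 1 fit. Their summed share went from 0.318 ± 0.151% to 0.146 ± 0.0693%, and much of that drop was ZAR1, at 176 to 24.6 FPKM. The median log2 difference of the list was 0.09, with 15 members above 0 and 11 below. YBX2, which packages stored mRNA, was not called and spread widely between libraries, from 4.87 to 94.8 FPKM in GV and from 1.83 to 22.1 FPKM in MII oocytes. DAZL, a translational activator of germ cells, had a mean of 1.18 ± 1.4 FPKM in GV and 1.57 ± 0.769 FPKM in MII oocytes. Of 18 genes for cyclic AMP signalling, which holds the oocyte in arrest, 0 were called, against 10.2% lower and 2.42% higher of all genes. Of these 16 had a mean under 5 FPKM, so the missing calls do not show that they were kept. In this list 1 was higher without GV July replicate 2, MII July replicate 2 or MII July replicate 3 and under both alternative scalings. RGS2, a regulator of G protein signalling among the 8 most abundant messages of both stages, had 580.4, 837 and 2084 FPKM in GV and 866, 1598 and 2297 FPKM in MII oocytes and was not called (log2 difference 0.76 ± 0.29). MOS, WEE2, BTG4, CPEB1, GPR3, PDE3A and BCL2L10 were not analysed here.

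Heat shock proteins and co-chaperones had 8 of 69 members lower and 2 higher, a share of 11.6% lower that was near the 10.2% background. HSPA8, the constitutive HSP70, fell from 94.4 ± 36.1 to 38.4 ± 17.4 FPKM (log2 difference -1.31 ± 0.31, adjusted p = 0.0053). DNAJC30 fell from 7.35 ± 7.8 to 0.653 ± 0.37 FPKM, STIP1, which links HSP70 to HSP90, from 4.35 ± 1.13 to 1.27 ± 0.45 FPKM (a call lost after quantile normalization, at -0.97), and HSBP1, which binds heat shock factor, from 38.1 ± 12.3 to 8.81 ± 2.14 FPKM. The heat-inducible HSPA1A spread widely, over 4.92, 15.2 and 53.4 FPKM in GV and 3.15, 6.19 and 20.6 FPKM in MII oocytes as lowest, median and highest library, and was not called. HSP90AB1, the constitutive cytosolic HSP90, spread over 22.4, 30.8 and 166 FPKM and 33.2, 59.8 and 149.6 FPKM and was not called either. HSP90B1, of the endoplasmic reticulum, was higher, from 8.27 ± 5.86 to 19 ± 9.73 FPKM, and DNAJB4 passed at an unadjusted p with an adjusted p of 0.057. Neither call held without MII July replicate 2, at 0.97 and 0.83, and HSP90B1 also lost it without GV July replicate 1, at 0.96, or MII July replicate 6, at 0.98. Without GV July replicate 2, 5 members were called higher, as after median-of-ratios scaling, and quantile normalization gave 6 higher and 5 lower. Of 25 BCL2 family and caspase genes 1 was lower and 1 higher, or 4.0% each against 10.2% and 2.42% of all genes. Each count was 2 without GV July replicate 2. The count lower was also 2 without GV July replicate 1 or MII July replicate 1 or 4, and the count higher without GV July replicate 4 or MII July replicate 2, 3 or 6 and under both alternative scalings. BID, a pro-apoptotic member, fell from 1.99 ± 0.65 to 0.257 ± 0.136 FPKM, and CASP6, an executioner caspase, rose from 9.28 ± 1.62 to 24.4 ± 11.2 FPKM.

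Retained genes kept their share through maturation. Their median log2 difference was 0.05, and all intervals lay between -1 and 1 by definition. Beside OOEP the most abundant were C15H11orf31, at 255 ± 46.2 to 332 ± 141 FPKM, SCAND1, a SCAN domain protein, at 240.1 ± 54.4 to 211 ± 88.3 FPKM, SS18L2, a relative of a chromatin remodelling subunit, at 223 ± 49.7 to 247 ± 30.1 FPKM, and UBE2D3, a ubiquitin-conjugating enzyme, at 235 ± 12.8 to 345 ± 146 FPKM. UBE2D3 had 636 FPKM in MII July replicate 2 against a median of 304 FPKM. UBB, a polyubiquitin gene and the second most abundant GV message, had nearly equal means of 4875 ± 2776 and 4857 ± 2743 FPKM, but its spread between libraries was too wide for it to count as retained, with an interval of -1.12 to 1.28. ID3, an inhibitor of basic helix-loop-helix factors, was as variable, at 1376 ± 821 to 976 ± 729.6 FPKM, and was at 166 FPKM in GV July replicate 2.

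The largest gains among genes without overlap were of IFITM3, HIST2H2AC, TMEM128, F3, SFT2D1, CNEP1R1, HMGB2 and OOSP1. HIST2H2AC, a histone H2A gene of the replication-dependent class, whose messages typically end without a poly(A) tail (chr3:20770689-20771063), had 26.2, 64.6 and 76 FPKM in its lowest, median and highest GV library and 102, 236 and 343 FPKM in MII oocytes. Its log2 difference was 1.93 ± 0.32 (adjusted p = 0.00041). HMGB2, a chromatin protein abundant in germ cells (chr8:5583683-5586019), ranged over 74.8, 100.5 and 135 FPKM and 198, 327 and 424 FPKM. The lowest MII value exceeded the highest GV value, as the choice of these genes required. TMEM128, a membrane protein (chr6:107477962-107493241), rose from 6.43 ± 1.05 to 25.4 ± 4.56 FPKM, a 3.95-fold ratio of means. F3, the tissue factor that starts blood clotting, rose from 28.7 ± 11.5 to 98 ± 30.1 FPKM. SFT2D1, of vesicle transport, rose from 8.46 ± 0.907 to 30.1 ± 7.43 FPKM and CNEP1R1, which regulates a nuclear envelope phosphatase, from 9.53 ± 3.4 to 33.5 ± 15.1 FPKM. IFITM3, an interferon-induced membrane protein, stood at 0.429 ± 0.402 to 5.32 ± 2.41 FPKM at chr11:107260745-107261719, and its symbol is repeated in the table, so its reads may be divided. Many gains were of already abundant messages. TMSB4 went from 1452, 4911 and 5542 FPKM to 6161, 10179 and 14736 FPKM and TMSB4X from 2017, 3006 and 3439.5 FPKM to 5628, 6372 and 8941 FPKM, as lowest, median and highest library of each stage. The TMSB4X call was lost after quantile normalization, at 0.86. Of the genes called higher, 124 had a GV mean of at least 5 FPKM and 8 a GV mean under 1 FPKM.

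**Figure D4:**
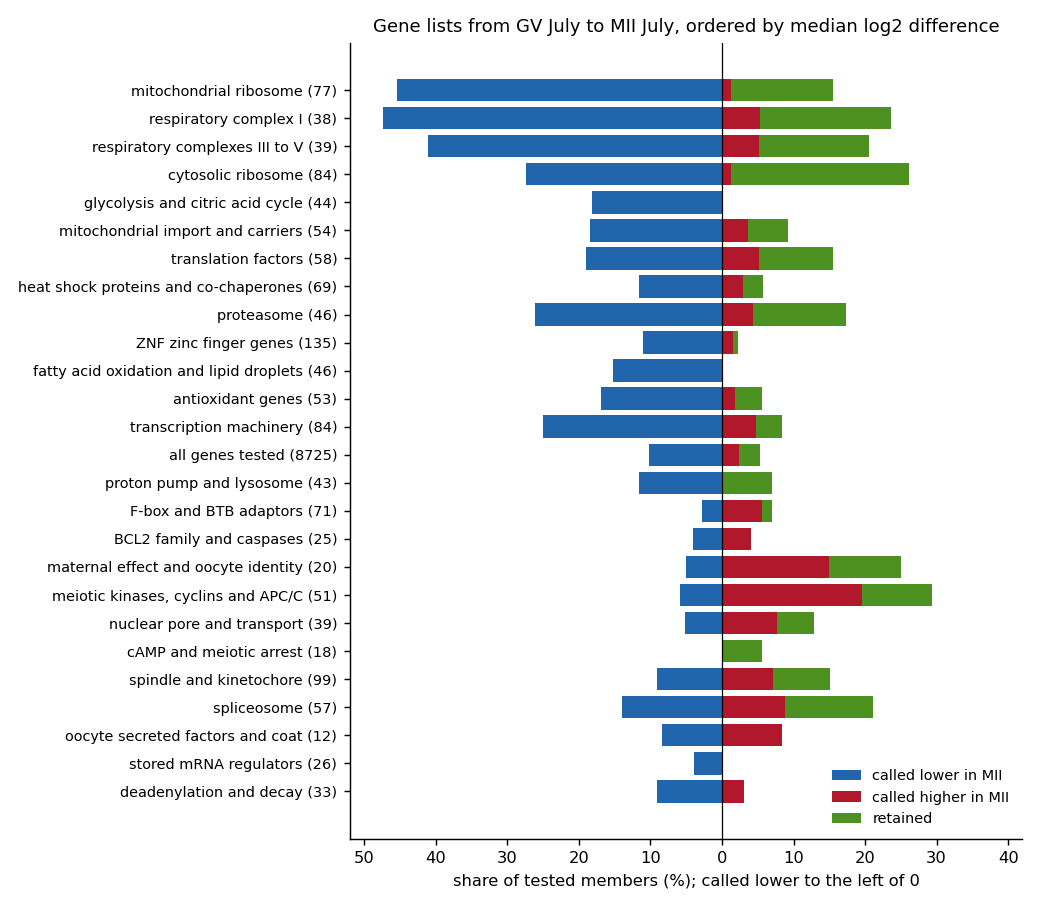
Share of the tested members of each gene list (number in parentheses) called lower in MII July (left of 0), called higher or retained (right of 0), in percent, ordered by the median log2 difference of the list; all 8725 genes are given as their own bar. Mitochondrial ribosome and respiratory complexes have the longest bars on the left, at 41.0% to 47.4%, and the meiotic kinase and cyclin list the longest bar called higher, at 19.6%.

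Outcome also varied with the size of the gene. Gene span, the distance from start to end in the table with introns included, was compared over the 1492 genes with a mean of at least 5 FPKM. Its median was 3.92 kb for genes called lower, 6.27 kb for retained genes and 11.2 kb for genes called higher, against 5.91 kb for all. Among 660 genes under 5 kb, 39.1% were called lower and 4.70% higher, while among 146 genes of 20 to 50 kb 6.85% were lower and 25.3% higher. The median log2 difference rose with each class in between, from -0.64 under 5 kb to 0.02, 0.40 and 0.81 at 5 to 10, 10 to 20 and 20 to 50 kb. By chromosome, genes called lower ranged from 2 of 39 on chromosome 6, or 5.13%, to 36 of 63 on chromosome 29, or 57.1%. Over all genes of that level the share was 28.5%. Chromosomes with few such genes were left out. These are descriptions across genes, which are not independent replicates. Transcript length, base composition and tail length were not measured here, and the study's alignment summary lists a higher GC content of reads for most GV than for most MII July libraries. The part of these in the calls was not tested.

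The same direction was measured in May. Of the 886 genes called lower in July, 882 had the same sign and 695 were called lower in May, or 78.4%, where 9.01% of all genes were called lower. Of the 211 called higher, all had the same sign and 135, or 64.0%, were called higher in May, against 3.9% of all genes. None changed to the opposite call. Of the 255 retained genes 131 were also retained in May, where 2.48% of all genes were, and 6 were called higher. The study's alignment summary gives replicate 6 of GV May and of MII May the lowest mapped shares of the series. Without both, 745 of the 886 and 149 of the 211 were called the same way in May. The difference between the changes, July minus May, was tested over all 4 groups. It passed an unadjusted p under 0.05 for 166 of the 8725 genes, or 1.9%, and no gene passed after adjustment with limma, the smallest adjusted p being 0.9998.

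At an unadjusted p the panel of oocyte genes contained 4 whose change from GV to MII differed between the months. ZP2 had a log2 difference of 0.44 ± 0.29 in July and 1.65 ± 0.25 in May (unadjusted p = 0.0035 for the difference). For NPM2 the values were -0.99 ± 0.22 and -0.21 ± 0.24 (unadjusted p = 0.019), for PRDX1 0.22 ± 0.24 and 1.0 ± 0.28 (unadjusted p = 0.039), and for ZP4 -0.30 ± 0.34 and 0.65 ± 0.29 (unadjusted p = 0.044). None of these passed adjustment. The remaining panel genes did not differ at that level, and losses such as ZAR1 (-2.94 ± 0.40 and -2.32 ± 0.39) and gains such as DNMT1 (1.12 ± 0.25 and 1.26 ± 0.22) differed by an unadjusted p of 0.28 and 0.68.

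**Figure D5:**
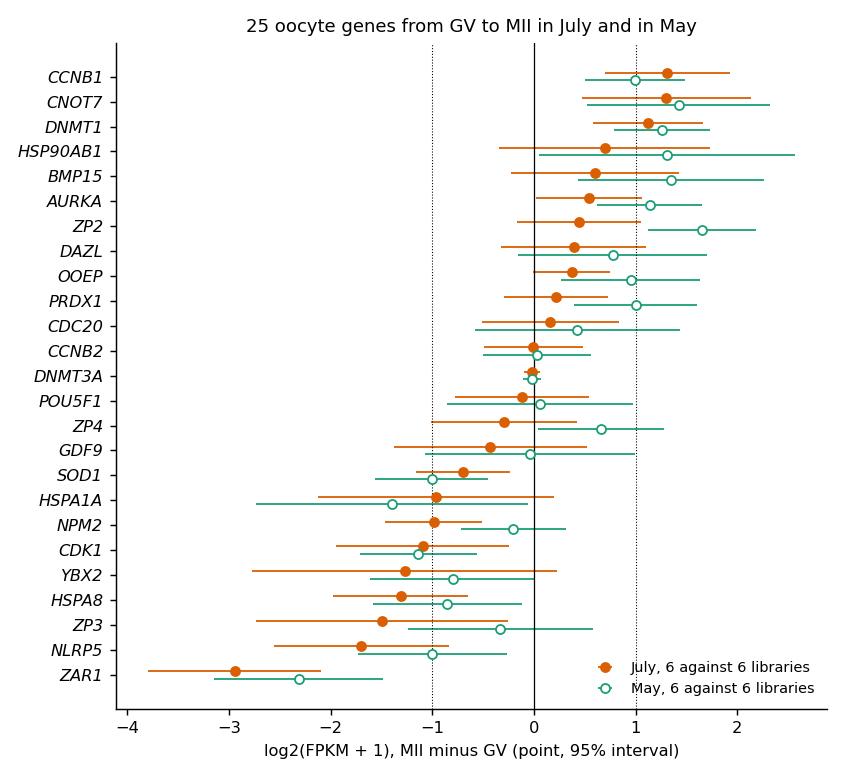
Log2(FPKM + 1) difference, MII minus GV (horizontal; point and 95% interval), of 25 oocyte genes in July (filled) and May (open), 6 against 6 libraries each; the dotted lines mark 2-fold. ZAR1 lies furthest left and CCNB1 and CNOT7 furthest right in July, and ZP2 shows the widest gap between the months.

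Markers of other cells were detected at various levels in both stages. Of 27 listed cumulus and granulosa cell markers, 18 passed the minimum, 0 were called lower and 1, HAS2, was called higher. These were 0% and 5.56% against 10.2% and 2.42% of all genes, and 14 of the 18 had a mean under 5 FPKM and no call. Their summed level was 34.8 to 127 FPKM in GV July, the highest in replicate 2, and 27.8 to 86.9 FPKM in MII July. Most of it was STAR, KRT8 and KRT18, with means of 29.1, 18.9 and 6.43 FPKM in GV July, and the means of 12 further markers were at most 0.841 FPKM in both stages, among them AMH, PTX3, TNFAIP6, VCAN and INHBA at no more than 0.316 FPKM. PTGS2, a prostaglandin synthase of cumulus expansion, was at 1.64 ± 1.33 FPKM in GV and 3.8 ± 2.63 FPKM in MII July and was not called (log2 difference 0.84 ± 0.35, adjusted p = 0.079). GREM1, another gene of cumulus expansion, went the other way without a call, from 0.602 ± 0.134 to 0.19 ± 0.25 FPKM (log2 difference -0.45 ± 0.13, limma adjusted p = 0.014). Of the 18 markers 8 had a log2 difference below 0 and 10 had one above 0. CYP11A1, a steroidogenic enzyme, was at 1.36 ± 0.668 and 0.905 ± 0.917 FPKM. HAS2, the hyaluronan synthase of expanding cumulus cells, rose from 0.486 ± 0.373 to 2.15 ± 1.09 FPKM, a call lost, at 0.92 to 1.0, without GV July replicate 3 or 5 or MII July replicate 4 or 6. Without GV July replicate 2 and under both alternative scalings 2 of these markers were called higher. Blood and immune cell markers summed to 7.01 to 15.6 FPKM in GV and 4.15 to 11.2 FPKM in MII July. Of the 10 tested 0 were called, against 10.2% lower and 2.42% higher of all genes, and 9 had a mean under 5 FPKM. Without GV July replicate 2 or 3 or MII July replicate 4, 1 of them was lower. All 10 of these tested had a log2 difference below 0. Only VWF among them had an adjusted p under 0.05, going from 0.495 ± 0.321 to 0.0876 ± 0.0706 FPKM (limma adjusted p = 0.015). Oocyte markers had 10 of 11 genes at a mean of at least 5 FPKM, so oocyte RNA was captured. The stage of the oocytes was not checked by these markers. The part of other cells in the calls was not tested.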

How the data were processed

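RNA was measured in pools of 4 denuded oocytes of 1 cow each, captured and amplified with a SMART-seq kit and sequenced as paired ends. The authors aligned trimmed reads to UMD3.1.1 with STAR 2.5.3a and deposited FPKM values per gene and library. By inspection, all libraries of the deposited FPKM sum to one total and the lowest entry is 0.01. That this chemistry primes at the poly(A) tail is general knowledge of the kit; strand and the counting of shared reads are not given in the sources used here.

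From the deposited FPKM, log2(FPKM + 1) was fitted with limma 3.58.1 (R 4.3.3; spread moderated along the mean) for the 8725 genes over 0.1 in at least 1 of the 12 July libraries. Calls used an unadjusted p under 0.05 and a fold over 2, as in the study, and Benjamini-Hochberg adjusted p is given beside them. Single genes also had a two-sided exact permutation test over 924 assignments. The study used Partek for this step. Further tables used numpy 2.4.6 and pandas 2.3.3 (Python 3.11.15). In values simulated for the July comparison with 8725 genes, changes were placed only on genes with a GV July mean of log2(FPKM + 1) over 2. Of these, 96 of 100 genes with a log2 change of 2 and 89 of 100 with one of 1.5 were recovered as calls. Calls were also made for 36 of 8525 unchanged genes. Recovery of changes in lower genes was not simulated. Depth was estimated from value steps, with 97.3% of 2070 checked values within 0.1 of a whole multiple; precision in reads is unknown.

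The genes compared and the 28 gene lists, written from symbols, were chosen with earlier results of these data known. Named genes were the 8 largest losses and 8 largest gains without overlap, the 8 most abundant genes of each stage, the 5 most abundant other retained genes, up to 3 called lower and 3 called higher of smallest p per list, and a panel of 32 oocyte genes, 25 of which were tested; MAPRE2, NUP54, MRPL23, RAB21 and SCN3B were named after their values were seen. Alternatives were other pseudocounts, filters and scalings, all 4 groups in 1 fit, a replicate block, adjusted p, ratios of means and leaving out libraries. Symbols at 2 loci, 29 in all, were kept as separate entries. DNA methylation was not analysed here.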

Additional observations from a re-analysis of the deposited data

Results flagged for a closer look

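In each stage the highest and the lowest of the 6 July libraries were examined for every gene named by rule, on the log2(FPKM + 1) scale, and a library was singled out when its gap to the next exceeded Dixon's 95% critical value. This happened in 33 of 300 groups of 6 libraries, or 11%, and chance singles out about 1 group in 20. GV July replicate 2 accounted for 24 of the 33. The values are given with the median of the 6 libraries of that stage.

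GV July replicate 2 was the lowest library for 12 genes, namely ATP5G1 (69.6 against 129.5 FPKM), ATP5J2 (16.3 against 37.4 FPKM), GSTM3 (582 against 2068 FPKM), HIST2H2AC (26.2 against 64.6 FPKM), HSBP1 (16.5 against 39.7 FPKM) and ID3 (166 against 1358 FPKM), and LAMTOR4 (36.4 against 54.9 FPKM), NDUFA8 (5.88 against 16.8 FPKM), PTTG1 (440.3 against 1075 FPKM), SSSCA1 (36.6 against 181 FPKM), TIMM17B (21.7 against 71.0 FPKM) and TXNDC9 (14.4 against 36.4 FPKM). It was the highest library for 12 genes, namely AURKA (199 against 90.1 FPKM), EEF1D (15.4 against 8.16 FPKM), GDF9 (379 against 125 FPKM), HSP90AB1 (166 against 30.8 FPKM), KIF20B (7.43 against 3.38 FPKM) and MDH2 (16.6 against 7.80 FPKM), and MRPL17 (24.3 against 18.9 FPKM), PLK1 (28.3 against 5.18 FPKM), RGS2 (2084 against 837 FPKM), UBE2D3 (261 against 231 FPKM), ZP3 (572 against 89.7 FPKM) and ZP4 (198 against 61.9 FPKM). Of these genes PLK1 and PTTG1 were no longer called without GV July replicate 2. ZP3 kept its call without that library alone and lost it without both GV July replicates 2 and 5, at -1.08.

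The other 9 values came from 5 libraries. In GV July replicate 4, NDUFB10 was lowest at 14.6 FPKM and OOSP1 highest at 468 FPKM. In MII July replicate 2, EIF2S3 was highest at 12.5 FPKM, KIF20B at 16.2 FPKM and UBE2D3 at 636 FPKM. MII July replicate 5 was lowest for EIF1AD at 0.829 FPKM and highest for TMSB4X at 8941 FPKM. FBXO4 was lowest in MII July replicate 3 at 8.21 FPKM, and HIST2H2AC in MII July replicate 4 at 102 FPKM. No gene named here passed the adjusted test of a different change in July and May (limma, smallest adjusted p 0.9998), and 166 of 8725 genes passed it unadjusted.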

How the results depend on the processing

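Under all alternatives run, no gene called in the main fit changed sign, and 96 of the 125 named genes that were called kept their direction and call under all 23 alternatives. Genes called lower numbered 886 and 817 to 922 with each library left out in turn, and 860 by adjusted p; those called higher numbered 211, 165 to 338 with each library left out, 189 by adjusted p and 317 without both GV July replicates 2 and 5, a setting chosen after seeing the data because of their depth. A pseudocount of 0.1 gave 1978 lower and 562 higher, log2 of the deposited value with none 2673 and 841, and the ratio of group means as fold change 2465 and 773, since each lets low genes pass the 2-fold rule. Quantile normalization gave 491 and median-of-ratios scaling 376 genes higher, with 207 and 209 of the 211 kept. Retained genes numbered 255, 203 to 268 with each library left out, and 107 with a mean minimum of 20 FPKM, which admits fewer genes. The July minus May difference had 20 of 9526 genes past an unadjusted p and 2-fold, 15 to 41 with each library left out, and 0 by adjusted p in each of these fits.

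Genes that changed sign lay near 0. CCNB2 had 0.28 with quantile normalization, 0.18 with median-of-ratios scaling, 0.088 without both GV July replicates 2 and 5, and -0.11 to 0.10 with each library left out. UBB had -0.070, with the ratio of means -0.0053, -0.43 without both libraries and -0.40 to 0.34 with each left out. POU5F1 had 0.13 and 0.0078 under the 2 scalings and -0.30 to 0.023 with each library left out, DNMT3A 0.033 with quantile normalization, ZP4 0.019 without both libraries, and CDC20 -0.035 to 0.31 with each left out.

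The replicate numbers were not shown to pair the libraries, since same-numbered GV and MII July libraries deviated together by a correlation over 0.1 in 4 of 6 pairs and 3 of 6 libraries correlated best with their own number. With the number as a block 886 genes were lower and 211 higher, of which 883 and 208 were shared with the fit without it, 282 were retained and 23 differed between July and May. The deposited values carry no counts, so counting error is not given and an exact floor value cannot be read as absence.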

Other observations

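MAPRE2, a microtubule end-binding protein, is listed at 2 places, and its values moved between them. At chr2:21117911-21119284 (UMD3.1.1) it was at the lowest value of the table, 0.01 FPKM, in 5 of 6 GV July libraries and at 56.1 FPKM in replicate 3, and the 6 MII July libraries had 30.4 to 107 FPKM (log2 difference 5.05 ± 0.86, SE). At chr24:22190114-22306885 GV July replicate 3 was at 0.01 FPKM and the other 5 at 0.481 to 1.51 FPKM, while all 6 MII libraries were at 0.01 FPKM. In no July library were both entries above 0.01 FPKM. The sum over the 2 entries was not tested.

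Some genes were high in a single library and at 0.01 FPKM in the other 11. With a minimum of 10 FPKM there were 4, namely NUP54 at chr29:50654262-50656136 with 381 FPKM in MII July replicate 2, MRPL23 at chr10:8139772-8140293 with 206 FPKM in GV July replicate 1, RAB21 at chrX:97425147-97427313 with 96.9 FPKM in MII July replicate 4 and SCN3B at chr10:67852052-67861115 with 10.4 FPKM in GV July replicate 2. None was called.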
